A study of Mus musculus with 14 samples.

Results

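The acetate comparison in Th1 cultures rested on 4 arrays of the 14 in the study. Of the 45101 probe sets of the array, 34958 carried exactly 1 gene symbol and were used. The 2 acetate arrays hybridised RNA from CD4+ T cells of mouse spleen, peripheral lymph nodes and mesenteric lymph nodes that had been cultured with human IL-2 at 100 U/ml, mouse IL-12 at 10 ng/ml, an antibody against mouse IL-4 and the added compound at 10 mM. The 2 control arrays hybridised RNA from the same kind of culture, with the same IL-2, IL-12 and anti-IL-4 and without the compound. The sample protocols of the treated Th1 cultures write acetone where the series' design text writes sodium acetate, and both arrays are named acetate arrays below. Culture lasted 5 days in the protocols and 6 to 7 days in the design text. The other arrays came from Th17 cultures (3 acetate and 3 control) and Treg cultures (2 acetate and 2 control), whose acetate groups also received the compound at 10 mM. All of these had IL-2 and TGF-beta, and the Th17 cultures had in addition IL-6, IL-1 beta, IL-23, IL-21, TNF-alpha and antibodies against IL-4 and interferon-gamma. The sample protocols of the treated Treg cultures also write acetone, and their arrays are likewise named acetate arrays. The labels used here give no mouse strain, age or genotype, and they do not tell separate animals or cultures within a group apart. The p-values therefore measure the spread between arrays, and that spread may be technical.

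Th1 cells are CD4 T cells that differentiate under IL-12, which acts through STAT4, and that are driven by the transcription factor T-bet. They are known for secreting interferon-gamma and inflammatory chemokines, and blocking IL-4 keeps the alternative Th2 fate in check. Chronically stimulated Th1 cells can also make IL-10, an inhibitory cytokine that limits the damage of the response, and can carry perforin and granzymes. Acetate belongs to the short chain fatty acids that bacteria of the gut release. Cells take it up through monocarboxylate transporters, sense it through the receptor encoded by Ffar2 and turn it into acetyl-CoA through the synthetases encoded by Acss1 and Acss2.

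Genes for chemokines, IL-10, perforin, the metallothionein Mt3 and lysosomal proteins led the genes that were higher with acetate. Genes of the TNF family and the T cell genes Cd3g and Cd6 were among those that were lower. Of 10916 genes tested, 435 (3.98%) differed between acetate and control Th1 arrays at an adjusted p under 0.05 in limma with Benjamini-Hochberg adjustment. Of these, 221 genes (2.02%) were higher and 214 (1.96%) were lower with acetate. A gene that met this threshold is said to have risen or fallen below. The shares of 2.02% and 1.96% are the background for the counts of called genes in every gene list. The lists were chosen with earlier results of these data known, so their counts are descriptions and not tests. Values are signals on a linear scale after quantile normalization, and differences are acetate minus control on the scale log2(signal + 3), with the standard error of the fit. The median difference of all genes tested was 0.01. In 4711 genes (43.2%) both acetate arrays lay beyond both control arrays, above them in 2293 (21%) and below them in 2418 (22.2%). On the signals as deposited, whose median difference was 0.23, 223 genes passed and 79.8% of them were higher with acetate, against 50.8% after quantile normalization.

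The arrays of a group differed from each other almost as much as the groups did. Across genes, the Pearson correlation was 0.94 between the acetate arrays and 0.95 between the control arrays, and it was 0.89 to 0.947 between an acetate and a control array. Genes are not independent replicates. The acetate arrays differed by more than 2 log2 units in 160 genes, and the control arrays did so in 127. The count of 435 was 72 without acetate replicate 2 and 86 without control replicate 2, whereas it was 994 without acetate replicate 1 and 483 without control replicate 1. It was 198 to 274 when 1 of the Th17 control or Treg arrays, which share the estimate of the spread, was left out, and 757 without Th17 acetate replicate 1. Fitted on the 4 Th1 arrays alone, 7 genes passed, and they included Ccl9, Mt3, Atp6v0d2, Gzma, Klrk1 and Ighm. Before normalization, the trimmed mean signal was 67.3 and 64.4 in the acetate arrays, against 55.6 and 53.2 in the control arrays. The 3-prime signal of 18S ribosomal RNA was 879 and 1576 in acetate arrays, against 609 and 298 in control arrays. The part of these differences in the results was not tested. The ratio of the 3-prime to the 5-prime probe set of Gapdh was 1.10 and 1.05 in acetate arrays, against 1.05 and 0.998 in control arrays, and that of Actb was 1.27 and 1.10 in acetate arrays, against 1.28 and 1.40 in control arrays.

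**Figure D1:**
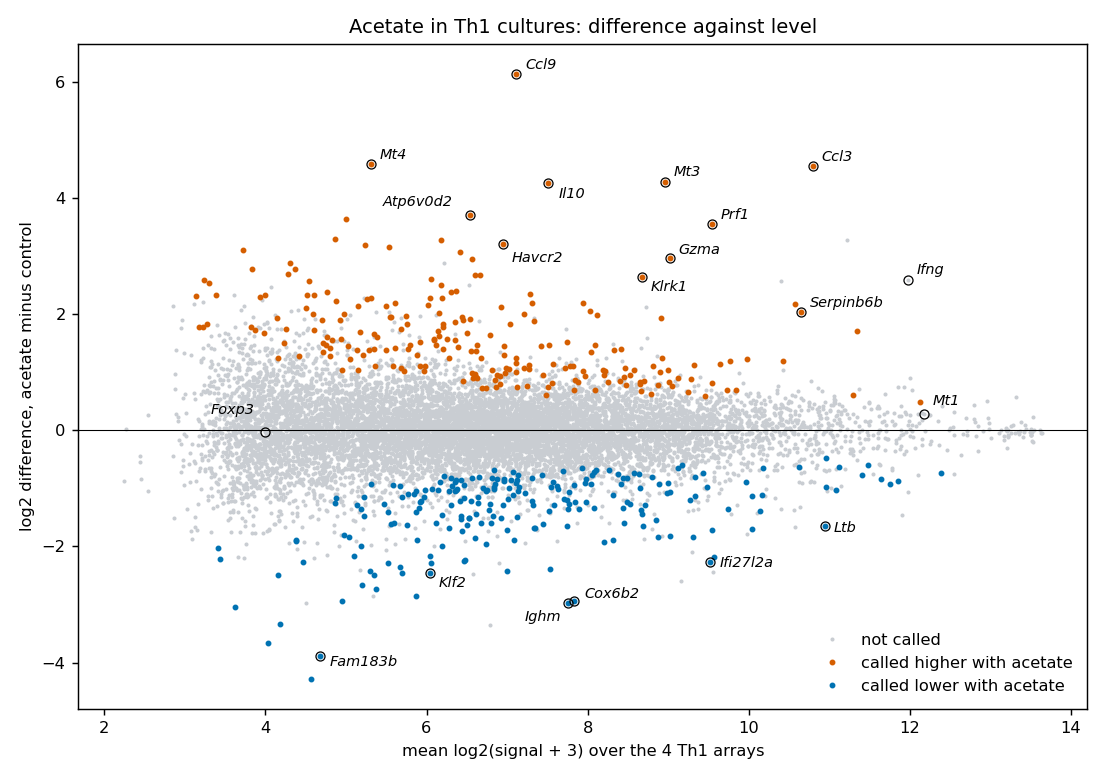
Difference against level for the 10916 genes tested. The x axis is the mean log2(signal + 3) over the 4 Th1 arrays and the y axis the log2 difference, acetate minus control; 221 genes called higher are orange, 214 called lower are blue, and Ccl9 stands at the top with a difference of 6.13.

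Both cultures carried the genes that define the labelled cell type. Thy1 had signals of 3830 and 4554 in acetate arrays, against 4075 and 3761 in control arrays. Cd4, the co-receptor that names the lineage, had 387 and 217 in acetate arrays, against 451 and 836 in control arrays, and did not pass (log2 difference -1.08, adjusted p = 0.0975). Tbx21, which encodes T-bet, had 391 and 489 in acetate arrays, against 389 and 243 in control arrays. Foxp3 and Il17a, defining genes of alternative fates, were low. Foxp3, which marks Treg cells, had 12.7 and 12.8 in acetate arrays, against 15.1 and 11.2 in control arrays. Il17a of Th17 cells had 13.5 and 12.6 in acetate arrays, against 6.76 and 11.2 in control arrays. Of the Th2 genes, Il4 had 6.47 and 14.4 in acetate arrays, against 15.4 and 13.7 in control arrays. Gata3 was not as low, with 50.1 and 15.5 in acetate arrays, against 46.3 and 80.4 in control arrays.

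The chemokine genes Ccl9 and Ccl3 rose with acetate, Ccl9 by the widest difference of all genes tested. Ccl9, a chemokine that attracts myeloid cells through the receptor CCR1, had signals of 782 and 1704 in the acetate arrays, against 29.5 and 5.40 in the control arrays. The difference was 6.13 ± 0.65 (adjusted p = 0.00132), and both of its probe sets had the same sign. Ccl3, which encodes MIP-1 alpha, had 5725 and 12831 in acetate arrays, against 1360 and 95.6 in control arrays (4.55 ± 1.06, adjusted p = 0.0356). The control arrays thus lay far apart for Ccl3 and both remained below the acetate arrays. Ccl4, encoding MIP-1 beta, had 5402 and 10136 in acetate arrays, against 2454 and 234 in control arrays, and did not pass (3.28, adjusted p = 0.0648). Ccl5, encoding RANTES, had 3745 and 2854 in acetate arrays, against 737 and 411 in control arrays, and did not pass (2.56, adjusted p = 0.0807). Of 18 chemokine genes on the array, 8 passed the filter on low signals, 2 of them rose, 0 fell, and their median difference was 2.26. Ccl6, a near neighbour of Ccl9 in the RefSeq gene order, did not reach the filter and had 14.5 and 22.5 in acetate arrays, against 2.26 and 0.589 in control arrays. The call of Ccl9 held without any single array. That of Ccl3 was lost without acetate replicate 2 (adjusted p = 0.181), without control replicate 2 (adjusted p = 0.222), without Th17 control replicate 3 (adjusted p = 0.057), without any 1 of the Treg arrays (adjusted p = 0.053 to 0.0574) and without the variance trend (adjusted p = 0.0622).

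The promoters of Ccl9 and Havcr2 are shown here because each holds a match to TGANTCA, read on both strands and marked in capitals. Ccl9 had the widest difference, and Havcr2, a surface receptor described further on, also kept its call without any single array. TGANTCA is a loosened form of the AP-1 motif, which has C or G at the open position N. The marked stretches have A there in Ccl9 and T in Havcr2, so that neither matches the stricter motif. The windows run from 250 bases before the start of the gene to 50 bases after it and are taken from RefSeq (GRCm38.p6), chr11:83578587-83578886 on the minus strand and chr11:46454681-46454980 on the plus strand, each 300 bases long and written 5′ to 3′.
Ccl9: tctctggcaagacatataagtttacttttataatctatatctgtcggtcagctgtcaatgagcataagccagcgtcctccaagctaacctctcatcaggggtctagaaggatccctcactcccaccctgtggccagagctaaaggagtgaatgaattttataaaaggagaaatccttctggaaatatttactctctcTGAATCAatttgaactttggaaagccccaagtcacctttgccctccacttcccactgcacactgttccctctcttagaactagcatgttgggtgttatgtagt
Havcr2: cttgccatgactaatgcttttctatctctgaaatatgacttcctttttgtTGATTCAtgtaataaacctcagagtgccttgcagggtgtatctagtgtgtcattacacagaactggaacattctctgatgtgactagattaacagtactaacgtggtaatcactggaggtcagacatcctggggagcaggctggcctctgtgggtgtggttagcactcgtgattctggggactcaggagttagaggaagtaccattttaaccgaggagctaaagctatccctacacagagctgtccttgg
Of 32851 promoter windows of the same length, 7.81% held the loosened form TGANTCA at least 1 time. A match describes the letters only, and no binding was measured.

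**Figure D2:**
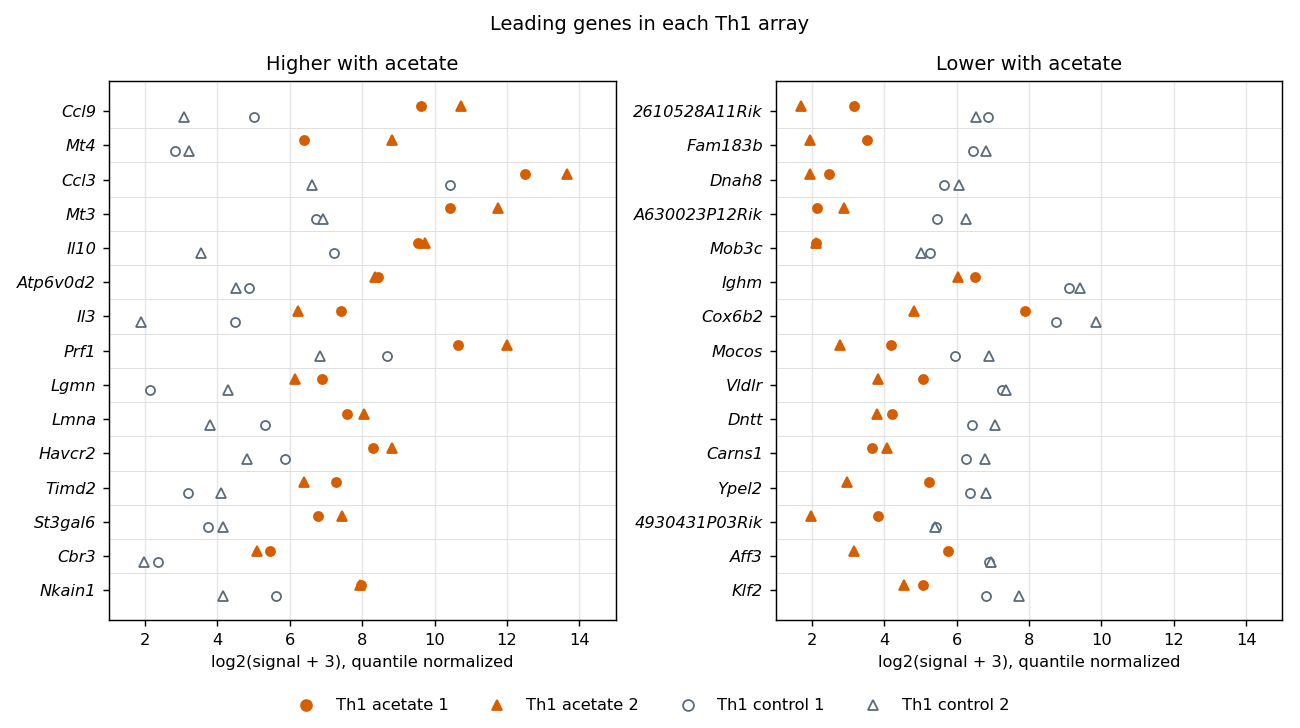
The 15 genes with the largest called differences in each direction, with the log2(signal + 3) of each Th1 array on the x axis and genes down the page. Filled orange marks are the 2 acetate arrays and open grey marks the 2 control arrays; in every gene shown the acetate arrays lie on 1 side of both control arrays, which the choice of the genes required.

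Among the secreted cytokines, Il10 and Il3 rose, Ltb and Il16 fell, and Ifng did not pass. Il10 had signals of 746 and 843 in acetate arrays, against 145 and 8.70 in control arrays (4.26 ± 0.78, adjusted p = 0.0147). The acetate arrays were close to each other and the control arrays were not. Il3, a growth factor for myeloid cells and mast cells, had 168 and 72.5 in acetate arrays, against 19.2 and 0.709 in control arrays (3.65 ± 0.82, adjusted p = 0.0304). Ifng, the defining Th1 cytokine, had 8185 and 11908 in acetate arrays, against 3009 and 891 in control arrays. All 4 arrays gave high signals and the acetate arrays lay above the control arrays, but the difference of 2.59 ± 1.06 missed the threshold (adjusted p = 0.176), which it met without Th17 acetate replicate 1 (adjusted p = 0.0413). Tnf had 588 and 884 in acetate arrays, against 530 and 166 in control arrays, and did not pass (1.27, adjusted p = 0.123). Il2, the T cell growth factor, had 62.5 and 67.6 in acetate arrays, which lay between the 127 and 4.45 of the control arrays. Ltb, which encodes lymphotoxin beta, a membrane cytokine needed for lymphoid tissue, had 1312 and 929 in acetate arrays, against 3126 and 3886 in control arrays (-1.66 ± 0.22, adjusted p = 0.00334). Of 19 secreted cytokine genes tested, 2 rose, 2 fell and 15 did not pass, with a median difference of 0.45.

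With 3.98% of all genes tested passing, Prdm1 was the only one of 12 listed regulators of Il10 that passed. It encodes Blimp-1, a repressor known for terminal differentiation of lymphocytes and needed for IL-10 in several T cell settings, and it had 235 and 252 in acetate arrays, against 70.7 and 62.6 in control arrays (1.83 ± 0.33, adjusted p = 0.0139). Maf, another activator of Il10, had 147 and 88.0 in acetate arrays, against 131 and 53.9 in control arrays, which overlapped. Batf had 442 and 506 in acetate arrays, against 373 and 241 in control arrays, and did not pass (0.65, adjusted p = 0.0992). Without acetate replicate 2 the calls of Il10, Il3, Prdm1 and Il16 were lost (adjusted p = 0.0725 to 0.183), and without control replicate 2 those of Il3, Prdm1 and Il16 were lost (adjusted p = 0.0774 to 0.199). Il3 was also lost without acetate replicate 1 (adjusted p = 0.0704), without Th17 control replicate 3 (adjusted p = 0.0504) and without the variance trend (adjusted p = 0.0514). Il16 was lost on the signals as deposited (adjusted p = 0.1), as the mean over probe sets (adjusted p = 0.107) and without the variance trend (adjusted p = 0.0514). Ltb kept its call without any single array.

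Genes of the cytotoxic granule moved in both directions. Prf1, which encodes the pore-forming protein perforin, had signals of 1588 and 4075 in acetate arrays, against 409 and 112 in control arrays (3.55 ± 0.62, adjusted p = 0.012). The second probe set of Prf1 had the opposite sign without being called. Gzma, which encodes the serine protease granzyme A, had 1168 and 1797 in acetate arrays, against 181 and 183 in control arrays (2.97 ± 0.47, adjusted p = 0.00855). Gzmb, encoding granzyme B, was already near the top of the signal range, with 12197 and 12624 in acetate arrays, against 8984 and 7772 in control arrays, and did not pass (0.57, adjusted p = 0.551). Gzmd, Gzme, Gzmc and Gzmk had both acetate arrays above both control arrays without passing (differences of 1.59 to 2.88, adjusted p = 0.0542 to 0.132), and similar granzyme sequences may share signal on the array. Serpinb6b, a serpin of the family that inhibits granule proteases, had 3596 and 2919 in acetate arrays, against 1067 and 588 in control arrays (2.03 ± 0.27, adjusted p = 0.00337). In the other direction, Ctsw, a cathepsin of cytotoxic lymphocytes, had 1069 and 569 in acetate arrays, against 1565 and 1827 in control arrays (-1.11 ± 0.25, adjusted p = 0.0301). Lamp1, a protein of the lysosome and granule membrane, had 417 and 277 in acetate arrays, against 649 and 641 in control arrays (-0.92 ± 0.19, adjusted p = 0.0224). Of 18 genes of the cytotoxic list tested, 3 rose, 2 fell and 13 did not pass, and the median was 1.13.

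Genes of 3 receptors first known from natural killer cells rose as well. Klrk1, encoding the activating receptor NKG2D, had signals of 950 and 1096 in acetate arrays, against 165 and 156 in control arrays (2.65 ± 0.47, adjusted p = 0.0129). Klrc1, encoding the inhibitory receptor chain NKG2A, had 518 and 575 in acetate arrays, against 212 and 87.4 in control arrays (1.98 ± 0.47, adjusted p = 0.0383). Klre1 had 30.1 and 63.1 in acetate arrays, against 11.6 and 5.15 in control arrays (2.10 ± 0.36, adjusted p = 0.0116). Of 11 genes of this list tested, 3 rose and 0 fell, with a median of 0.51. The NK markers on the array were low in both groups: Ncr1 had 4.46 and 4.36 in acetate arrays, against 6.05 and 6.32 in control arrays, and the summed signal of all 3 NK markers was 10.1 and 18.9 in acetate arrays, against 7.09 and 6.65 in control arrays. CD8 T cells are another source of such genes, and the summed signal of Cd8a and Cd8b1 was 105 and 60.7 in acetate arrays, against 63.5 and 37.6 in control arrays, with neither gene passing. In bulk cultures a change in the number of cells of a type and a change in RNA per cell cannot be told apart. Without acetate replicate 2 the calls of Prf1, Gzma, Ctsw, Lamp1, Klrk1, Klre1 and Klrc1 were lost (adjusted p = 0.0573 to 0.181), and without control replicate 2 those of Prf1, Ctsw, Lamp1, Klrk1, Klre1 and Klrc1 were lost (adjusted p = 0.072 to 0.237). Ctsw and Klrc1 were also lost without Th17 control replicate 3 (adjusted p = 0.0521 and 0.0601), Klrc1 without any 1 of the Treg arrays (adjusted p = 0.0575 to 0.0596), Ctsw and Klrc1 without the variance trend (adjusted p = 0.0617 and 0.0633), and Prf1 as the mean over probe sets (adjusted p = 0.0582). On the signals as deposited Ctsw and Lamp1 did not pass (adjusted p = 0.192 and 0.293).

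Of 17 genes of the Th1 program tested, Havcr2 alone passed, a share near the 3.98% of all genes tested. Havcr2 encodes TIM-3, an inhibitory receptor of differentiated Th1 cells. It had signals of 311 and 447 in acetate arrays, against 55.7 and 25.0 in control arrays (3.21 ± 0.43, adjusted p = 0.00337), and its call held without any single array. The genes through which IL-12 acts had overlapping arrays. Stat4 had 453 and 304 in acetate arrays, against 272 and 486 in control arrays (0.03 ± 0.26, adjusted p = 0.964). Il12rb2, the inducible chain of the IL-12 receptor, had 294 and 149 in acetate arrays, against 220 and 199 in control arrays (0.00 ± 0.38, adjusted p = 0.997). Tbx21 did not pass (0.50 ± 0.53, adjusted p = 0.631), and neither did Il12rb1 (0.23), Eomes (0.81), Runx3 (-0.39) or the chemokine receptor gene Cxcr3 (-0.21), with adjusted p from 0.402 to 0.853. The median of the Th1 program was 0.23. The lineage genes of other subsets did not pass either: Il17a (0.45), Foxp3 (-0.03), Gata3 (-1.03) and Il4 (-0.45) had adjusted p from 0.198 to 0.971.

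Inhibitory receptors and enzymes of extracellular nucleotide breakdown gave a mixed picture. Entpd1, encoding CD39, which removes phosphates from extracellular ATP, had 185 and 140 in acetate arrays, against 66.0 and 47.6 in control arrays (1.47 ± 0.36, adjusted p = 0.041). Nt5e, encoding CD73, which makes adenosine in the next step, had 26.2 and 14.2 in acetate arrays, against 50.2 and 70.6 in control arrays (-1.48 ± 0.36, adjusted p = 0.0397). Lag3 overlapped between groups (0.00), and Ctla4 (0.54) and Pdcd1 (0.95) did not pass, with adjusted p from 0.13 to 0.997. Among chemokine receptor genes, Ccr1, the receptor gene for the products of Ccl3 and Ccl9, had 93.9 and 76.0 in acetate arrays, against 34.7 and 5.67 in control arrays (2.28 ± 0.51, adjusted p = 0.0301). Cxcr5, a receptor for homing to follicles, had 126 and 63.0 in acetate arrays, against 31.3 and 13.8 in control arrays (1.94 ± 0.36, adjusted p = 0.0147). Ccr7, which guides naive T cells to lymph nodes, had 734 and 122 in acetate arrays, against 1211 and 1372 in control arrays, and did not pass (-2.09, adjusted p = 0.058). Entpd1, Nt5e and Ccr1 were lost without acetate replicate 2 (adjusted p = 0.109 to 0.236), and these and Cxcr5 without control replicate 2 (adjusted p = 0.104 to 0.206). Entpd1 and Ccr1 were lost without acetate replicate 1 (adjusted p = 0.0867 and 0.0564), Entpd1 without control replicate 1 (adjusted p = 0.051), and Entpd1, Nt5e and Ccr1 without Th17 control replicate 3 (adjusted p = 0.0504 to 0.0629). Entpd1 and Nt5e were lost without Th17 control replicate 1 or any 1 of the Treg arrays (adjusted p = 0.0586 to 0.0633), Nt5e without Th17 control replicate 2 (adjusted p = 0.0597) and Entpd1 without Th17 acetate replicate 2 (adjusted p = 0.0503). Entpd1 and Nt5e did not pass without the variance trend (adjusted p = 0.0607 and 0.0639), Entpd1 and Ccr1 as the mean over probe sets (adjusted p = 0.0582 and 0.0656), Entpd1 with no filter (adjusted p = 0.0601), and Nt5e with 16 added or as deposited (adjusted p = 0.0714 and 0.11).

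**Figure D3:**
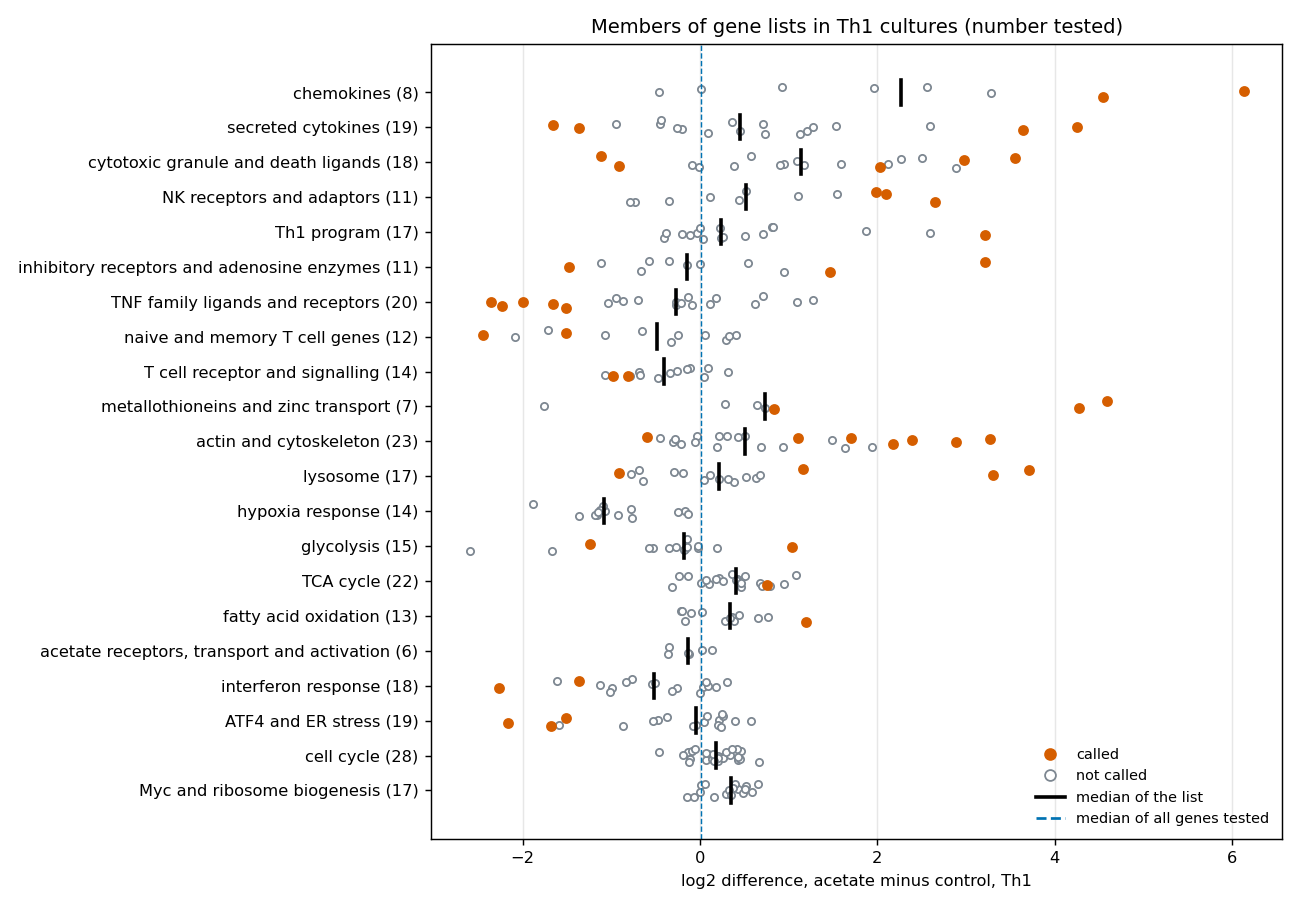
Log2 difference, acetate minus control, of every tested member of 21 gene lists in Th1 cultures. Filled marks passed at an adjusted p under 0.05, black bars are list medians and the dashed line is the median of all genes tested, 0.01; chemokines have a median of 2.26 and all 14 hypoxia genes lie below 0.

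Metallothioneins, small proteins that bind zinc and copper, split into genes that rose and genes that did not pass. Mt3, best known from the brain, had signals of 1377 and 3452 in acetate arrays, against 103 and 117 in control arrays (4.28 ± 0.62, adjusted p = 0.00527). Mt4, best known from stratified epithelia, had 81.0 and 446 in acetate arrays, against 4.07 and 6.27 in control arrays (4.58 ± 0.83, adjusted p = 0.0142). Both genes had separate groups, with the second acetate array above the first. Mt4 reached the filter on low signals only through the Th1 acetate arrays, so its call is no separate support for a rise of metallothioneins. Mt1 and Mt2, the metallothioneins of most tissues, had overlapping arrays and high signals throughout. Mt1 had 5040 and 5124 in acetate arrays, against 5551 and 3165 in control arrays (0.28, adjusted p = 0.518). Mt2 had 4492 and 5609 in acetate arrays, against 4583 and 1979 in control arrays (0.74, adjusted p = 0.143). Each of the 4 is read by the probe set listed for it, and signal from related transcripts was not tested. Slc30a1, a zinc exporter, had 2.57 and 4.48 in acetate arrays, against 51.6 and 5.74 in control arrays, and did not pass (-1.76, adjusted p = 0.133). Slc39a14, another gene of zinc transport, rose with 277 and 354 in acetate arrays, against 206 and 146 in control arrays (0.84). In limma its call was lost on the signals as deposited (adjusted p = 0.0814), on a common trimmed mean (adjusted p = 0.0571) and in further settings. Of 7 genes of this list tested, 3 rose and 0 fell, with a median of 0.74. The call of Mt3 held without any single array, and that of Mt4 was lost without acetate replicate 2 (adjusted p = 0.116) and without control replicate 2 (adjusted p = 0.0661).

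The 4 metallothionein genes lie next to each other on mouse chromosome 8, and their promoters are shown because 2 of these neighbours passed and 2 did not. A difference in response between the genes was not tested. Capitals mark the core of the metal response element, TGCACNC or TGCGCNC on either strand. The windows are from RefSeq (GRCm38.p6), all on the plus strand, at chr8:94136954-94137253 for Mt4, chr8:94152357-94152656 for Mt3, chr8:94172368-94172667 for Mt2 and chr8:94178839-94179138 for Mt1.
Mt4: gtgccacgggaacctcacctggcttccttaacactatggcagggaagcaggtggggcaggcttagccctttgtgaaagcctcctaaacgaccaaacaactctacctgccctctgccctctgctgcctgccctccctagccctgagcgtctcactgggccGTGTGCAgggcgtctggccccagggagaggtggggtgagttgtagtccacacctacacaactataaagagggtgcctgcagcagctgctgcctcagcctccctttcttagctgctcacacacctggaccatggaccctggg
Mt3: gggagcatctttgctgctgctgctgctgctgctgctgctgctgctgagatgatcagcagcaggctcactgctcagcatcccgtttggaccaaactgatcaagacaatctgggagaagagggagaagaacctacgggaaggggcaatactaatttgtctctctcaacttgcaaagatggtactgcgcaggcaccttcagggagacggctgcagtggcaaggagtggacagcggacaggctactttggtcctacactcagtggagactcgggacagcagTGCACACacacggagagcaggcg
Mt2: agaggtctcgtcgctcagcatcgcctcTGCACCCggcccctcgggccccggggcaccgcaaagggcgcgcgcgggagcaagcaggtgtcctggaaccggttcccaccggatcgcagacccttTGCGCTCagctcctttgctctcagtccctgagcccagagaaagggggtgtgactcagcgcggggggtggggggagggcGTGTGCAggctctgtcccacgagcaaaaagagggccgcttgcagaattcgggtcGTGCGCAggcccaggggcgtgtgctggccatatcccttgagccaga
Mt1: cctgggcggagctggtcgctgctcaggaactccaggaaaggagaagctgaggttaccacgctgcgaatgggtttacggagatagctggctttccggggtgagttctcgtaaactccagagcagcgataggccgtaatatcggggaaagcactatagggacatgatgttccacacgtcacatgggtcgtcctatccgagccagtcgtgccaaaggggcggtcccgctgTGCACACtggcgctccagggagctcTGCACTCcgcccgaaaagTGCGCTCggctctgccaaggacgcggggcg
In these windows, Mt4 and Mt3 held 1 match each, Mt2 held 4 and Mt1 held 3. Whether each window covers the core promoter of its gene was not tested, so the counts are not a comparison of the promoters. Of all 32851 windows, 25.7% held at least 1 match, 1.97% held at least 3 and 0.517% held at least 4. No binding was measured at any of these letters.

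Genes of stress and redox enzymes were higher in small numbers. Hspb1, a small heat shock protein gene, had 115 and 129 in acetate arrays, against 31.2 and 45.3 in control arrays (1.62 ± 0.29, adjusted p = 0.0142). Gstm1, a glutathione transferase gene, had 40.1 and 44.1 in acetate arrays, against 13.7 and 12.8 in control arrays (1.47 ± 0.26, adjusted p = 0.012). Txnrd1, encoding thioredoxin reductase, had 275 and 391 in acetate arrays, against 159 and 141 in control arrays (1.11 ± 0.26, adjusted p = 0.0387). Of 16 genes of the NRF2 and glutathione list, 2 rose and 0 fell, with a median of 0.20. Hmox1, a much used marker of oxidative stress, had 60.7 and 98.4 in acetate arrays, against 42.8 and 37.7 in control arrays, and did not pass (0.90, adjusted p = 0.073). Cbr3, a carbonyl reductase gene, had 41.0 and 31.1 in acetate arrays, against 2.14 and 0.910 in control arrays (3.11 ± 0.62, adjusted p = 0.0217). Hspb1, Gstm1, Txnrd1 and Cbr3 were lost without acetate replicate 2 (adjusted p = 0.0674 to 0.223), and Gstm1, Txnrd1 and Cbr3 without control replicate 2 (adjusted p = 0.0621 to 0.17). Txnrd1 was also lost without control replicate 1 (adjusted p = 0.0606) and without any 1 of the Th17 control or Treg arrays (adjusted p = 0.0508 to 0.0604). As the mean over probe sets, Gstm1 (adjusted p = 0.108) and Txnrd1 (adjusted p = 0.217) did not pass, nor did Txnrd1 without the variance trend (adjusted p = 0.0599).

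Lysosomal genes included the smallest adjusted p among the named genes. Atp6v0d2, a subunit of the proton pump that acidifies lysosomes, best known from osteoclasts and macrophages, had signals of 341 and 326 in acetate arrays, against 26.1 and 19.7 in control arrays (3.71 ± 0.26, adjusted p = 2.48e-05). Replicates were close in both groups. Lgmn, encoding the lysosomal protease legumain, had 115 and 68.2 in acetate arrays, against 1.41 and 16.5 in control arrays (3.30 ± 0.55, adjusted p = 0.00987). Ctsl, encoding cathepsin L, had 246 and 167 in acetate arrays, against 87.0 and 91.3 in control arrays (1.16 ± 0.18, adjusted p = 0.00866). Of 17 lysosome genes tested, 3 rose, Lamp1 fell and 13 did not pass, with a median of 0.21. Macrophage markers were read beside these genes: Adgre1, which encodes F4/80, had 13.6 and 6.62 in acetate arrays, against 5.19 and 13.6 in control arrays. Lyz2, an abundant lysozyme gene of macrophages, had 1.03 and 7.23 in acetate arrays, against 4.19 and 7.15 in control arrays. The summed signal of the 11 macrophage markers on the array was 251 and 152 in acetate arrays, against 116 and 183 in control arrays, and none of the 3 tested passed. Atp6v0d2, Lgmn and Ctsl kept their calls without any single array. Ctsl did not pass as the mean over its 2 probe sets (adjusted p = 0.466), which differed in sign.

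Of the genes listed for actin and cytoskeleton, which include the nuclear envelope gene Lmna, more rose than fell. Of 23 genes of the actin and cytoskeleton list tested, 6 rose, 1 fell and 16 did not pass, with a median of 0.51. Over all genes tested, 2.02% rose and 1.96% fell. Lmna, which encodes lamins A and C of the nuclear envelope, had 189 and 263 in acetate arrays, against 36.6 and 10.8 in control arrays (3.27 ± 0.47, adjusted p = 0.00527). Anxa1, encoding the calcium-dependent membrane-binding protein annexin A1, had 240 and 144 in acetate arrays, against 32.6 and 33.4 in control arrays (2.40 ± 0.41, adjusted p = 0.0116). S100a6, a calcium-binding protein gene, had 2477 and 4203 in acetate arrays, against 802 and 632 in control arrays (2.18 ± 0.52, adjusted p = 0.0393). Pdlim4, encoding an actin-associated adaptor, had 109 and 22.9 in acetate arrays, against 2.41 and 6.82 in control arrays (2.88 ± 0.56, adjusted p = 0.0204). Gsn, encoding the actin-severing protein gelsolin, had 759 and 564 in acetate arrays, against 277 and 332 in control arrays (1.10 ± 0.20, adjusted p = 0.0134). Lmna and Gsn kept their calls without any single array, but Lmna did not pass as the mean over its 5 probe sets (adjusted p = 0.177), of which 3 shared its sign, and neither did Anxa1 (adjusted p = 0.104). Pdlim4 was lost without control replicate 1 (adjusted p = 0.0611), and Anxa1 without control replicate 2 (adjusted p = 0.0616). S100a6 was lost without acetate replicate 2, either control array, any 1 of the Th17 control or Treg arrays, or the variance trend (adjusted p = 0.0568 to 0.213).

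Further leading genes that rose were Timd2, St3gal6 and Nkain1. Timd2, encoding TIM-2, a relative of TIM-3, had 151 and 80.9 in acetate arrays, against 6.08 and 14.03 in control arrays (3.19 ± 0.43, adjusted p = 0.00385). St3gal6, a sialyltransferase gene, had 106 and 172 in acetate arrays, against 10.5 and 14.9 in control arrays (3.16 ± 0.53, adjusted p = 0.0104), and its call was lost without acetate replicate 2 (adjusted p = 0.0719). Nkain1, whose product binds the sodium pump, had 245 and 244 in acetate arrays, against 46.0 and 14.8 in control arrays (3.07 ± 0.43, adjusted p = 0.00487). Of the 15 leading genes that rose, 8 kept their call without any single array. Mt4, Lgmn and Cbr3 were the 3 of these 15 genes whose mean control signal was under 9.1, the level of the filter, so that the size of their difference depends on the added 3. The difference of Cbr3 was 3.91 with 1 added and 1.57 with 16 added, and it passed with both.

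The genes that handle acetate itself did not pass. Since 3.98% of all genes tested did, the short lists of this paragraph could hold no called gene at that share alone. Ffar2 had signals of 281 and 100 in acetate arrays, against 243 and 195 in control arrays (-0.36 ± 0.41, adjusted p = 0.658). Acss2, the cytosolic synthetase gene, had 73.6 and 49.2 in acetate arrays, against 43.5 and 99.1 in control arrays (-0.12 ± 0.32, adjusted p = 0.863). Acss1, the mitochondrial synthetase gene, had 23.3 and 22.6 in acetate arrays, against 14.2 and 34.7 in control arrays (0.03 ± 0.35, adjusted p = 0.974). Slc16a1, the monocarboxylate transporter gene, had 194 and 318 in acetate arrays, against 303 and 167 in control arrays (0.14 ± 0.28, adjusted p = 0.821). In all 4 genes the arrays of the groups overlapped, whereas in 43.2% of all genes tested they did not. The 6 tested members of this list had differences from -0.36 to 0.14, and 0 of them had an unadjusted limma p under 0.05. None of 16 deacetylase genes and none of 17 genes of fatty acid and sterol synthesis passed either, with 3 and 2 genes at an unadjusted p under 0.05. Their medians of -0.19 and -0.20 and that of the acetate list, -0.13, had the other sign on the signals as deposited (0.0012, 0.13 and 0.084).

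Genes of the hypoxia response had negative differences and most genes of the TCA cycle had positive ones, of which few passed. Of all 10916 genes tested, 5564 had a positive and 5352 a negative difference. All 14 tested genes of the hypoxia response had a negative difference after quantile normalization, with a median of -1.08 (-0.80 on the signals as deposited). In limma 0 of them passed, the lowest adjusted p was 0.0635, and 8 had an unadjusted p under 0.05. Ero1a, an oxidase of the endoplasmic reticulum, had 1227 and 580 in acetate arrays, against 2353 and 2005 in control arrays (-1.36, adjusted p = 0.0779). Ndrg1 had 501 and 90.6 in acetate arrays, against 632 and 1001 in control arrays (-1.88, adjusted p = 0.159), so that the second acetate array was the low one. In 9 of the 14 genes both acetate arrays lay below both control arrays, as they did in 22.2% of all genes tested. Of 15 glycolysis genes, Hk2 rose, Pfkl fell and 13 did not pass. Hk2, encoding hexokinase 2, had 778 and 679 in acetate arrays, against 374 and 333 in control arrays (1.04 ± 0.24, adjusted p = 0.0356). Pfkl, encoding the liver type of phosphofructokinase, had 217 and 246 in acetate arrays, against 381 and 792 in control arrays (-1.24 ± 0.28, adjusted p = 0.0304). Of 22 genes of the TCA cycle, 19 had a positive difference, the median was 0.41 and Suclg1 rose. Suclg1, a subunit of succinyl-CoA ligase, had 628 and 742 in acetate arrays, against 393 and 412 in control arrays (0.76 ± 0.17, adjusted p = 0.0297). Of 13 genes of fatty acid oxidation, Etfb, an electron carrier, rose with 1198 and 1446 in acetate arrays, against 653 and 506 in control arrays (1.19 ± 0.27, adjusted p = 0.0322), and the median was 0.34. None of 28 cell cycle genes passed, with a median of 0.18, against 3.98% of all genes tested. None of 17 genes of Myc and ribosome biogenesis passed either, with a median of 0.35. In both lists 0 genes had an unadjusted limma p under 0.05.

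Those 4 metabolic calls depended on single arrays. All 4 were lost without acetate replicate 2 (adjusted p = 0.0985 to 0.166), without control replicate 2 (adjusted p = 0.107 to 0.175), without Th17 control replicate 3 (adjusted p = 0.0504 to 0.057) and without the variance trend (adjusted p = 0.0514 to 0.0622). Hk2 and Pfkl were lost without acetate replicate 1 (adjusted p = 0.0648 and 0.0549), Hk2 and Suclg1 without control replicate 1 (adjusted p = 0.0552 and 0.0653), Hk2 and Etfb without either Treg control array (adjusted p = 0.052 to 0.053) and Etfb without Th17 control replicate 1 (adjusted p = 0.05). On the signals as deposited Pfkl (adjusted p = 0.131) and Suclg1 (adjusted p = 0.0616) did not pass.

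Genes of the ATF4 pathway, which responds to amino acid shortage and to stress of the endoplasmic reticulum, included 3 that fell among 19 tested. Stc2, encoding the secreted glycoprotein stanniocalcin 2, had 27.4 and 28.6 in acetate arrays, against 120 and 155 in control arrays (-2.17 ± 0.35, adjusted p = 0.00886). Atf5, a transcription factor gene, had 93.0 and 81.7 in acetate arrays, against 430 and 189 in control arrays (-1.68 ± 0.36, adjusted p = 0.0275). Trib3, a pseudokinase gene, had 50.9 and 52.9 in acetate arrays, against 233 and 101 in control arrays (-1.51 ± 0.38, adjusted p = 0.0461). The acetate arrays were close to each other in all 3. The median of the list was -0.05, and 0.19 on the signals as deposited. Stc2 was lost without control replicate 2 (adjusted p = 0.0626), and Atf5 without acetate replicate 2 (adjusted p = 0.129) or control replicate 1 (adjusted p = 0.0901). Trib3 was lost without either acetate array, control replicate 1, or any 1 of the Th17 control or Treg arrays (adjusted p = 0.0632 to 0.178), and with no filter, no variance trend, the mean over probe sets or the signals as deposited (adjusted p = 0.0613 to 0.112).

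The genes with the largest falls were mostly low in acetate arrays. Fam183b, linked to cilia, had 8.51 and 0.831 in acetate arrays, against 84.3 and 109 in control arrays (-3.90 ± 0.60, adjusted p = 0.00749). Dnah8, a dynein heavy chain gene of cilia and flagella, had 2.51 and 0.853 in acetate arrays, against 47.7 and 63.6 in control arrays (-3.66 ± 0.47, adjusted p = 0.00322). Mob3c, a kinase activator gene of the MOB family, had 1.30 and 1.34 in acetate arrays, against 35.6 and 29.5 in control arrays (-3.04 ± 0.47, adjusted p = 0.00749). In 6 of the 15 leading genes that fell the mean acetate signal was under 9.1, the level of the filter, so that the difference is limited by the added 3. Carns1, encoding carnosine synthase, had 9.64 and 13.7 in acetate arrays, against 74.2 and 108 in control arrays (-2.67 ± 0.32, adjusted p = 0.00209). Ighm, the immunoglobulin mu heavy chain gene of B cells, had 87.7 and 62.7 in acetate arrays, against 546 and 673 in control arrays (-2.98 ± 0.45, adjusted p = 0.00749). Of its 11 probe sets, 7 shared this sign, and as their mean it did not pass (adjusted p = 0.129). The other B cell markers were low in both groups. Cd79a had 2.02 and 12.9 in acetate arrays, against 2.68 and 12.2 in control arrays, and Ms4a1, which encodes CD20, had 3.03 and 8.78 in acetate arrays, against 7.72 and 5.01 in control arrays. The summed signal of the 9 B cell markers on the array, Ighm included, was 182 and 157 in acetate arrays, against 624 and 775 in control arrays.

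Other leading falls were those of Vldlr, Mocos, Dntt, Cox6b2, Aff3 and Ypel2 and of the genes known by the identifiers 2610528A11Rik, A630023P12Rik and 4930431P03Rik. Vldlr, encoding a receptor for very low density lipoprotein, had 30.9 and 11.1 in acetate arrays, against 148 and 161 in control arrays (-2.85 ± 0.47, adjusted p = 0.00983). Dntt, the template-independent polymerase gene of lymphocyte progenitors, had 15.6 and 10.9 in acetate arrays, against 83.2 and 130 in control arrays (-2.74 ± 0.65, adjusted p = 0.0383). Cox6b2, a cytochrome oxidase subunit gene best known from testis, had 232 and 25.4 in acetate arrays, against 428 and 919 in control arrays (-2.95 ± 0.71, adjusted p = 0.0394). The remaining 6 had differences from -4.28 to -2.46. All of these 9 except A630023P12Rik and Aff3 were lost without acetate replicate 2 (adjusted p = 0.0653 to 0.3), and all 9 without control replicate 2 (adjusted p = 0.0539 to 0.215). Without control replicate 1, 2610528A11Rik, Dntt, Ypel2, 4930431P03Rik and Aff3 were lost (adjusted p = 0.0506 to 0.0955). Cox6b2, Dntt, Ypel2 and 4930431P03Rik were lost without any 1 of the Th17 control or Treg control arrays, the first 3 of them also without either Treg acetate array, Aff3 without Th17 control replicate 3, Ypel2 without Th17 acetate replicate 3 and 4930431P03Rik without Th17 acetate replicate 2 (adjusted p = 0.0503 to 0.0732). Cox6b2, Dntt, Ypel2, 4930431P03Rik and Aff3 did not pass without the variance trend (adjusted p = 0.0501 to 0.0756), Dntt and Ypel2 as the mean over probe sets (adjusted p = 0.0805 and 0.133), Ypel2 and 4930431P03Rik with no filter (adjusted p = 0.0613 and 0.0647), Ypel2 with 16 added (adjusted p = 0.0544), and 4930431P03Rik on the signals as deposited, on a common trimmed mean or with 1 added (adjusted p = 0.0501 to 0.0643).

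Genes of the TNF family fell in 5 of 20 cases and rose in 0, against 1.96% and 2.02% of all genes tested. Tnfsf4, encoding the co-stimulatory ligand OX40L, had signals of 9.50 and 37.1 in acetate arrays, against 116 and 108 in control arrays (-2.36 ± 0.48, adjusted p = 0.0224). Tnfsf8, encoding the ligand of CD30, had 50.6 and 28.8 in acetate arrays, against 218 and 167 in control arrays (-2.23 ± 0.42, adjusted p = 0.0159). Tnfrsf25, encoding death receptor 3, had 60.9 and 18.0 in acetate arrays, against 183 and 111 in control arrays (-1.99 ± 0.44, adjusted p = 0.0301). Cd27, a co-stimulatory receptor of naive and memory T cells, had 66.0 and 71.5 in acetate arrays, against 186 and 218 in control arrays (-1.51 ± 0.30, adjusted p = 0.0217). Ltb, described above, was the fifth. The median of the family was -0.27 (-0.10 on the signals as deposited). Klf2, a transcription factor that keeps naive T cells quiescent and recirculating, had 30.7 and 20.5 in acetate arrays, against 109 and 209 in control arrays (-2.45 ± 0.54, adjusted p = 0.0299). Cd27 and Klf2 were the 2 of 12 tested genes of naive and memory T cells that fell, and 0 rose. Tnfsf8, Tnfrsf25, Cd27 and Klf2 were lost without acetate replicate 2 (adjusted p = 0.0738 to 0.186). They and Tnfsf4 were lost without control replicate 2 (adjusted p = 0.0616 to 0.176), and Tnfsf4 and Tnfrsf25 without control replicate 1 (adjusted p = 0.0528 and 0.098). Klf2 and Tnfrsf25 were lost without Th17 control replicate 3 (adjusted p = 0.0503 and 0.0521) or the variance trend (adjusted p = 0.0514 for both), and Cd27 on the signals as deposited (adjusted p = 0.103).

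Genes of the T cell receptor complex and of cell survival and death gave 4 falls and 1 rise. Cd3g, encoding the gamma chain of CD3, had 1690 and 1176 in acetate arrays, against 2986 and 2611 in control arrays (-0.98 ± 0.20, adjusted p = 0.0224). Of 14 genes of T cell receptor signalling tested, Cd3g and Cd6 fell and 0 rose, with a median of -0.41 (-0.06 on the signals as deposited). Bcl2, the survival gene, had 778 and 213 in acetate arrays, against 1272 and 1427 in control arrays (-1.72 ± 0.43, adjusted p = 0.0444). Bbc3, encoding the death-promoting protein PUMA, had 58.4 and 64.7 in acetate arrays, against 198 and 184 in control arrays (-1.59 ± 0.32, adjusted p = 0.0224). Pmaip1, encoding the death-promoting protein NOXA, rose with 227 and 239 in acetate arrays, against 141 and 134 in control arrays (0.75 ± 0.18, adjusted p = 0.041). Of 14 genes of the Bcl2 family these 3 passed. All of these, Cd6 included, were lost without acetate replicate 2 (adjusted p = 0.0762 to 0.232), without control replicate 1 (adjusted p = 0.0521 to 0.102) and without control replicate 2 (adjusted p = 0.072 to 0.184), and all 5 on the signals as deposited (adjusted p = 0.0652 to 0.446). Cd6 was lost without acetate replicate 1 (adjusted p = 0.0713). Bcl2, Cd6 and Pmaip1 were lost without any 1 of the Th17 control arrays, Bcl2 and Pmaip1 without any 1 of the Treg arrays, Cd6 without either Treg acetate array, and Bcl2 without Th17 acetate replicate 2 or 3 (adjusted p = 0.0525 to 0.0706). Without the variance trend or with no filter, Bcl2, Cd6 and Pmaip1 did not pass (adjusted p = 0.053 to 0.0747), and Cd6 did not pass on a common trimmed mean (adjusted p = 0.0648) or as the mean over probe sets (adjusted p = 0.0505).

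Interferon-inducible genes were lower in few members. Ifi27l2a had signals of 685.9 and 160 in acetate arrays, against 1235 and 2104 in control arrays (-2.27 ± 0.50, adjusted p = 0.0297). Isg20, an antiviral exonuclease gene, had 63.4 and 67.4 in acetate arrays, against 210 and 143 in control arrays (-1.37 ± 0.24, adjusted p = 0.0132). They were the 2 of 18 tested genes of the interferon response that fell, 0 rose, and the median was -0.52. None of 10 interferon-gamma inducible GTPases passed in limma, with a median of -0.59 and 2 genes at an unadjusted p under 0.05. Gimap3, a GTPase gene of lymphocyte survival, had 848 and 398 in acetate arrays, against 1648 and 2161 in control arrays (-1.69 ± 0.33, adjusted p = 0.0187). All 8 Gimap genes had a negative difference after quantile normalization, as did 5352 of the 10916 genes tested. Without acetate replicate 2 all 3 named genes were lost (adjusted p = 0.0573 to 0.133), and without control replicate 2 Ifi27l2a and Gimap3 were (adjusted p = 0.17 and 0.118). Ifi27l2a was lost without the variance trend (adjusted p = 0.0515) and Isg20 on the signals as deposited (adjusted p = 0.0985).

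The responses of the Th1 cultures were next set beside those of the Th17 and Treg cultures, which had arrays of their own. The subsets shared the estimate of the spread, the normalization, the choice of probe sets and the filter, so their calls are not independent. In the same fit 2217 genes (20.3%) passed in Th17 and 1355 (12.4%) in Treg cultures. Of the 221 genes that rose in Th1 cultures, 136 also rose in Th17 cultures, which is 61.5% of the Th1 genes and 10.8% of the 1255 genes that rose in Th17 cultures (11.5% of those tested). In Treg cultures 103 of them rose, or 46.6% of the Th1 genes and 13.9% of the 743 genes that rose there (6.81% of those tested). Of the 214 genes that fell in Th1 cultures, 131 also fell in Th17 cultures, which is 61.2% of the Th1 genes and 13.6% of the 962 that fell in Th17 cultures (8.81% of those tested). In Treg cultures 117 of them fell, or 54.7% of the Th1 genes and 19.1% of the 612 that fell there (5.61% of those tested). The opposite call was made for 1 risen and 2 fallen genes in Th17 cultures, and for 1 risen and 2 fallen genes in Treg cultures.

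Mt3 had much the same difference in all 3 subsets, 4.28 in Th1, 4.55 in Th17 and 4.05 in Treg cultures. Atp6v0d2 had 3.71 in Th1, 1.82 in Th17 and 2.41 in Treg cultures and passed in each. Ccl9 had 6.13 in Th1, 1.42 in Th17 and 2.53 in Treg cultures. The difference between its effect in Th1 and in Th17 cultures was 4.71 (adjusted p = 0.0777), and between Th1 and Treg cultures it was 3.60 (adjusted p = 0.104), so that neither passed. Il10 had 4.26 in Th1, 1.65 in Th17 and 3.45 in Treg cultures, and Prf1 had 3.55, 1.29 and 0.45 in that order. The differences of Il10 and Prf1 between subsets did not pass either (adjusted p = 0.151 to 0.826). Of the 30 leading genes, 0 passed the test of the difference from Th17 cultures and 3 passed that from Treg cultures. Of the 15 that rose in Th1 cultures, 8 also rose in Th17 and 10 in Treg cultures, against 11.5% and 6.81% of all genes tested. Of the 15 that fell, 9 also fell in Th17 and 6 in Treg cultures, against 8.81% and 5.61% of all genes tested. The leading genes were chosen for large differences, and the subsets share parts of the fit.

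**Figure D4:**
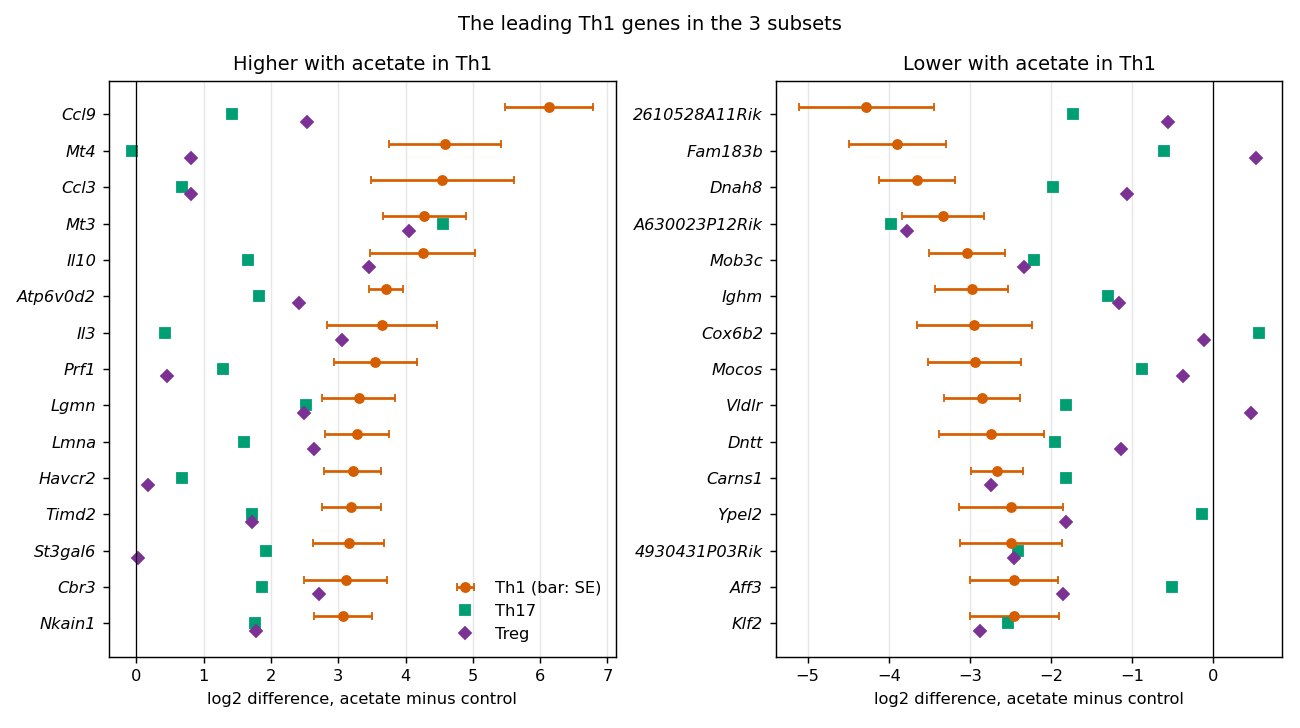
Log2 difference, acetate minus control, of the 15 leading genes in each direction in Th1 cultures (orange, with the standard error of the fit), beside the same genes in Th17 and Treg cultures. Mt3 is alike in the 3 subsets, whereas Havcr2 is 3.21 in Th1, 0.67 in Th17 and 0.17 in Treg cultures.

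The acetate effect differed between Th1 and Treg cultures in 68 genes (0.623%), 16 higher (0.147%) and 52 lower (0.476%) in the Th1 effect. Havcr2 was 3.04 ± 0.60 higher in the Th1 effect (adjusted p = 0.0428), with 3.21 in Th1 and 0.17 in Treg cultures. Serpinb6b was 1.89 ± 0.38 higher (adjusted p = 0.0428), with 2.03 in Th1 and 0.14 in Treg cultures. Ffar2, which did not pass in Th1 cultures (-0.36), rose in Treg cultures (2.65), and the difference was -3.01 ± 0.59 (adjusted p = 0.0401). Il24, a cytokine of the IL-10 family, had -0.21 in Th1 and 6.30 in Treg cultures, a difference of -6.50 (adjusted p = 0.00098). The glycolytic enzyme gene Pfkl had -1.24 in Th1 and 0.77 in Treg cultures, a difference of -2.01 ± 0.39 (adjusted p = 0.0401). Foxp3, which fell in Th17 (-2.36) and in Treg cultures (-2.43), had -0.03 in Th1 cultures, and the differences missed the threshold (adjusted p = 0.109 and 0.0575). The count of 68 was 1 without Treg acetate replicate 1, 8 without Treg control replicate 2, and 16 to 23 without Th1 acetate replicate 2, Th1 control replicate 2, Treg acetate replicate 2 or Treg control replicate 1. Without Th17 control replicate 3 it was 30 and without Th17 control replicate 1 it was 43, whereas it reached 309, 119 and 159 without Th1 acetate replicate 1, Th1 control replicate 1 and Th17 acetate replicate 1.

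Between Th1 and Th17 cultures the acetate effect differed in 4 genes (0.0366%), Epcam, Cox7a1, Lrmp and Timp2, all lower in the Th1 effect. Epcam, an adhesion molecule gene, had 34.0 and 29.5 in acetate arrays, against 69.9 and 77.8 in control arrays of Th1 cultures (-1.15), whereas its difference in Th17 cultures was 1.37. Timp2, encoding an inhibitor of metalloproteinases, had 103 and 40.2 in acetate arrays, against 143 and 241 in control arrays of Th1 cultures (-1.48), and its difference in Th17 cultures was 1.40. Cox7a1, a cytochrome oxidase subunit gene, and Lrmp, a membrane protein gene of the endoplasmic reticulum, overlapped between the Th1 groups (-0.56 and -0.07) and rose in Th17 cultures (2.23 and 1.48). The adjusted p of each of the 4 was 0.0439. The count was 0, with 899 to 1439 genes at an unadjusted p under 0.05, without any 1 of Th1 acetate replicate 2, Th1 control replicate 2, Th17 acetate replicate 2, the Th17 control arrays or the Treg arrays, whereas it was 536, 218, 31 and 13 without Th1 acetate replicate 1, Th1 control replicate 1, Th17 acetate replicate 1 and Th17 acetate replicate 3. With all arrays, 1598 genes had an unadjusted limma p under 0.05.

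**Figure D5:**
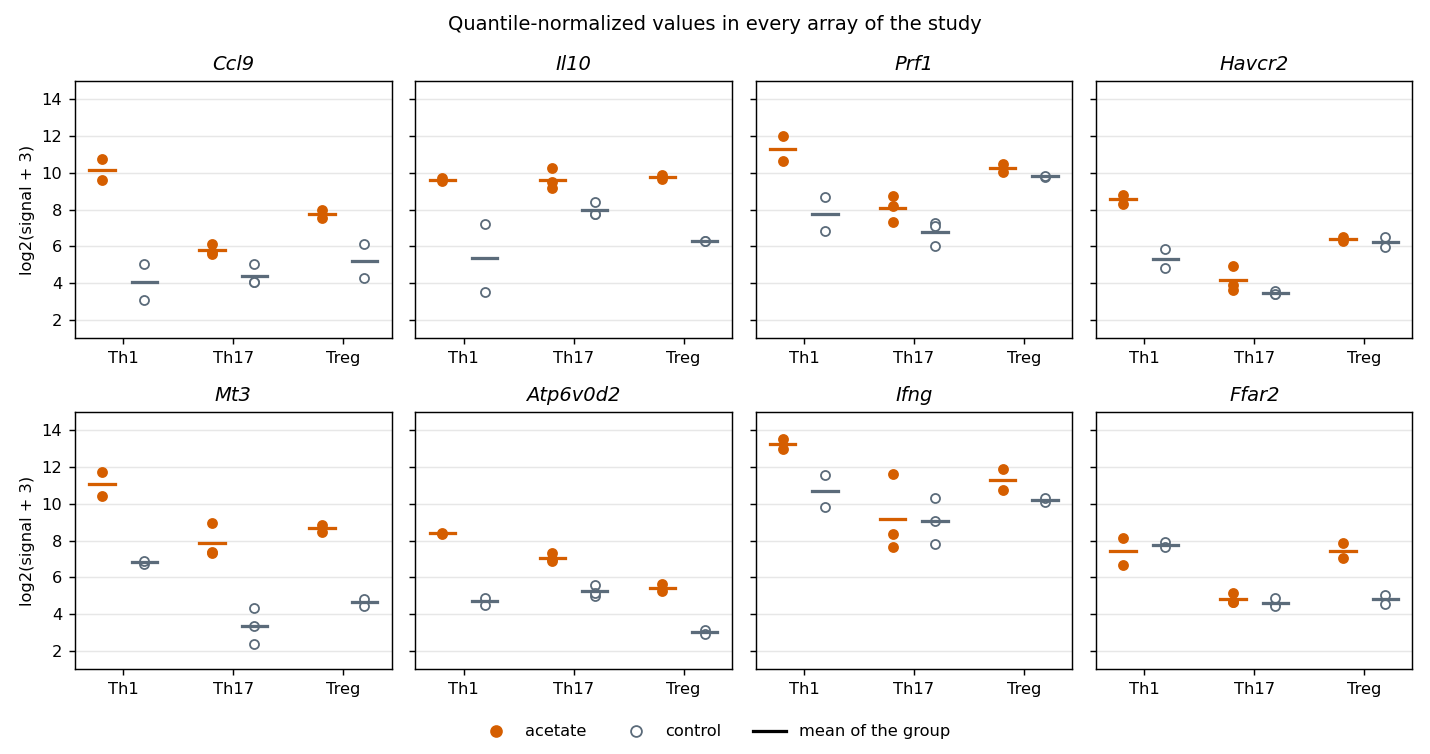
Log2(signal + 3) of 8 genes in all 14 arrays, by subset on the x axis, with acetate arrays filled and left of the open control arrays and bars at group means. Mt3 is higher with acetate in each subset, Ffar2 in Treg cultures, and Ifng lies above its control arrays in the Th1 cultures without passing the test.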

How the data were processed

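RNA of CD4+ T cell cultures was hybridised to Affymetrix Mouse 430 2.0 arrays, per the labels' protocols of the Th1 samples. Each deposited value is a linear signal intensity of 1 probe set on 1 array, which the submitters' processing notes credit to MAS5. The version and scaling target of MAS5 are not given in the sources used. Signal above background was not tested per probe set, and precision is limited by how few arrays there are.

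Of 45101 probe sets, 34958 had 1 gene symbol in the platform annotation, 932 had several and 9211 are unnamed in it. Signals were transformed as log2(signal + 3) and quantile normalized across 14 arrays. Differences on this scale understate the change of genes with low signals. For each of 18194 genes the probe set of highest mean was kept, and the 10916 genes whose mean reached the 40th percentile (a signal of 9.1) were tested.

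The model, fitted to all arrays with limma 3.58.1 under R 4.3.3, had 1 mean for each of 6 groups, a variance trend and 8 residual degrees of freedom, and p-values were adjusted by the Benjamini-Hochberg method over all genes tested. A lone array remaining in a group after another was left out is assumed to vary like the other groups. The labels give no scan date or batch. Same-numbered arrays did not pair: the correlations of their deviations from the group means were -0.16 in Th1, 0.063 in Treg and -0.062 to 0.159 in Th17 cultures.

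The members and the 52 gene lists were chosen with earlier results of these data known. Named genes were the 15 largest called differences in each direction with both acetate arrays beyond both control arrays, a fixed set of lineage and acetate genes, up to 4 called members (or the 2 largest differences) of each list holding a called gene, and the 8 smallest p-values for each difference between subsets. Not all are printed, and other list members are given by value, chosen after their values were seen. Promoter sequences are from RefSeq.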

Additional observations from a re-analysis of the deposited data

Results flagged for a closer look

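The following genes are those chosen by the naming rule whose acetate effect differed between subsets. The call is by the test of the difference itself, at an adjusted p under 0.05 in limma over all genes tested. Values are the effect in Th1 cultures minus that in the other subset, on the log2 scale.

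Against Th17 cultures the differences were -2.51 for Epcam, -2.80 for Cox7a1, -1.55 for Lrmp and -2.88 for Timp2. Each had an adjusted p of 0.0439, and over the alternatives in which they were lost it was 0.0517 to 0.23.

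Against Treg cultures 68 genes passed, 16 higher and 52 lower in the Th1 effect, and only the named ones are listed. Of these, Havcr2 (3.04) and Serpinb6b (1.89) were higher in the Th1 effect. The difference was -4.42 for Fam183b, -3.32 for Vldlr and -3.01 for Ffar2. Genes linked to glycolysis and mitochondria were Pfkl (-2.01), Tpi1 (-1.64), Pcx (-2.55), Higd1a (-2.004) and Cox7a1 (-2.85). Signalling and immune genes were Il24 (-6.50), Cysltr1 (-3.77), Fcmr (-3.55), Gng2 (-1.22) and H2-Q10 (-2.50). Syce2, a gene of meiotic chromosome pairing, had -2.04. Pcx, encoding pyruvate carboxylase, had signals of 82.7 and 61.5 in acetate arrays, against 87.0 and 119 in control arrays of Th1 cultures, and rose in Treg cultures (2.05). Tpi1, encoding triose phosphate isomerase, had 2758 and 2407 in acetate arrays, against 3361 and 4403 in control arrays of Th1 cultures, and rose in Treg cultures (1.06). Cysltr1, a leukotriene receptor gene, fell in Th1 cultures (-1.72) and rose in Treg cultures (2.05). Without Treg acetate replicate 1, Il24 alone passed of all genes tested.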

How the results depend on the processing

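Of the 82 genes chosen by the naming rule that passed, 38 rose and 44 fell, and all 82 kept the sign of their difference in every setting in which they were tested (62 of them with the filter at the 60th percentile). The number that still passed was 57 on the signals as deposited, 79 on a common trimmed mean, 80 with a pseudocount of 1 or 16, 69 with no filter, 60 as the mean over probe sets, 49 without the variance trend, 59 with the replicate number as a block and 6 on the Th1 arrays alone. It was 25 without Th1 acetate replicate 2 and 26 without Th1 control replicate 2, and 17 passed without any single array. The cause of these differences was not tested.

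The count of 435 in Th1 cultures became 223 as deposited, 280 with no filter, 287 as the mean over probe sets and 279 without the variance trend. It was 7 on the Th1 arrays alone, which leaves fewer arrays to estimate the spread. Leaving out 1 array gave 72 to 994. With the replicate number as a block it was 215, of which 200 were among the 435, and with the numbers of the Th1 acetate arrays crossed it was 740. The count of 4 against Th17 cultures became 11 as deposited, 1 on a common trimmed mean, 16 with a pseudocount of 16 and 0 with a pseudocount of 1, with no filter, with the filter at the 60th percentile, without the variance trend or with the replicate block; leaving out 1 array gave 0 to 536. The count of 68 against Treg cultures became 35 as deposited, 38 as the mean over probe sets, 16 without the variance trend and 62 with the replicate block; leaving out 1 array gave 1 to 309. All single-symbol probe sets, tested separately, gave 316 called of 34958. Signal over background was not given in the values used, which limits what can be said of genes with signals near 9.1.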
